A study of Homo sapiens with 10 samples.

Results

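LIN28A, LIN28B, TRIM71, HMGA1, HMGA2, IGF2BP1, IGF2BP2, IGF2BP3, ARID3B and MYCN are 10 genes of the LIN28 and let-7 axis, chosen by name as the LIN28 pair, TRIM71 and the oncofetal transcripts best known as let-7 targets. All 10 were found once in the expression table and all 10 passed the filter on low values, among 16687 genes tested. The samples were 4 RNA sequencing libraries of cells derived from H9, an established human embryonic stem cell line, and expression was given as TPM, a transcript abundance that is corrected for length and scaled to the same total in every library. The 2 control libraries carry the wild-type label and are described as spontaneously differentiated (SD) cells, whereas the 2 oeDAZL libraries are described as human primordial germ cell-like cells (hPGCLCs) that overexpress DAZL, an RNA-binding protein of germ cells. The series text calls both groups PGCLCs, and the study's methods describe lentiviral DAZL-P2A-GFP or GFP delivered during differentiation with BMP4 and BMP8a. Whether the control libraries received the BMPs or the GFP virus was not settled from these sources, so DAZL overexpression cannot be told apart from a difference in culture. The labels do not say that replicates came from separate cultures, so P-values measure the spread between these libraries, which may be technical. The other 6 samples of the series are miRNA sequencing libraries and were not analysed here.

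The let-7 miRNAs are small RNAs that pair through their seed with the 3′UTR of many mRNAs and lower the stability and translation of those mRNAs. LIN28A and LIN28B bind let-7 precursors and block their maturation, and their own mRNAs are let-7 targets, so that the proteins and the miRNAs repress each other. The other members are expressed in embryonic cells, fall as let-7 accumulates during development, and return in many tumors, which is why they are called oncofetal. Primordial germ cells are among the cells in which LIN28A is known to act.

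The mature let-7 sequences are shown first because every seed match described here follows from them. RefSeq (GRCh38.p14) held 9 mature sequences of the family, each of 22 bases. Capitals mark the seed, bases 2 to 8, which was GAGGUAG in all 9.
hsa-let-7a-5p: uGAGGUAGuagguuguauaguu
hsa-let-7c-5p: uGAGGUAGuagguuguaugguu
hsa-let-7d-5p: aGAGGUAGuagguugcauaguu
hsa-let-7i-5p: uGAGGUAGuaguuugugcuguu
hsa-miR-98-5p: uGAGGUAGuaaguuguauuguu
The 9 sequences share the seed and vary in the bases that follow it.

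The loops of the precursors are shown because LIN28 proteins are known to bind GGAG there, and because the study concerns binding of DAZL to GUU in precursors. Capitals mark GGAG.
MIRLET7A1: uuagggucacacccaccacugGGAGauaa
MIRLET7C: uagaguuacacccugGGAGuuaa
MIRLET7A3: uggggcucugcccugcuaugggauaa
Among the 11 family precursors with both arms in the RefSeq table, the stretch between the mature arms was 23 to 36 bases long, GGAG was present in 8 and GUU in 4. GGAG was present in 8.12% and GUU in 23.5% of the corresponding stretches of all 739 human precursors with both arms, which differ in length. The loop of MIRLET7C held GGAG and 2 GUU, that of MIRLET7A1 held GGAG without GUU, and that of MIRLET7A3 held neither. These are letter matches and no measure of binding.

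A site in an mRNA was searched on the transcript strand as CTACCTCA (8mer), as CTACCTC without the last A (7mer-m8) or as TACCTCA without the first C (7mer-A1), and each position was counted under 1 type. For every member, 1 site of its annotated 3′UTR is printed from the GENCODE 44 transcript on hg38, with 12 bases before and 4 bases after it and the site in capitals. The transcript is the one with the longest 3′UTR, except for HMGA2, where it is the canonical one.
LIN28A: cagcctattgaaCTACCTCAtttt
LIN28B: cggttgcaaagtCTACCTCAtgca
TRIM71: attgcttaagtcCTACCTCAtctt
HMGA1: tctgttcacaaaCTACCTCtgga
HMGA2: aacgttcgatttCTACCTCAgcag
IGF2BP1: gtgcgaagtaaaCTACCTCAaggt
IGF2BP2: acacagaagaagCTACCTCAggtg
IGF2BP3: atttttactcaaCTACCTCAggta
ARID3B: ttcaataaacctCTACCTCttca
MYCN: gtactgtaataaTACCTCAatgt
These sites lie at chr1:26427363-26427370 for LIN28A, chr6:105078827-105078834 for LIN28B, chr3:32891983-32891990 for TRIM71, chr6:34245844-34245850 for HMGA1, chr12:65963313-65963320 for HMGA2 and chr17:49051076-49051083 for IGF2BP1, all on the plus strand. The sites of IGF2BP2 at chr3:185644220-185644227 and IGF2BP3 at chr7:23311795-23311802 are on the minus strand, and those of ARID3B at chr15:74598116-74598122 and MYCN at chr2:15946603-15946609 are on the plus strand. All lie in 3′UTR exons.

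In the longest annotated 3′UTR of each member there were 31 sites in all, 12 of them 8mers. TRIM71 had 8 sites, 4 of them 8mers, in 6013 bases, and no other of the 19171 genes with a 3′UTR had as many sites. LIN28B, IGF2BP1 and ARID3B had 5 sites each, IGF2BP2 had 3, MYCN had 2, and LIN28A, HMGA1 and IGF2BP3 had 1 each. The longest 3′UTR of HMGA2 (7421 bases) had 0, whereas the 3′UTR of its canonical transcript (2999 bases, at chr12:65963293-65966291) had 7, and the TPM of the gene covers all its transcripts. An 8mer was present in 6 of 10 members by longest 3′UTR, against 4.001% of all 19171 longest 3′UTRs and 8.29% of the 6451 that are 2000 bases or longer. By canonical 3′UTR an 8mer was present in 7 of 10 members, against 3.74% of all 19151 canonical 3′UTRs. The members were chosen as let-7 targets, so these shares describe the choice and test nothing.

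**Figure D1:**
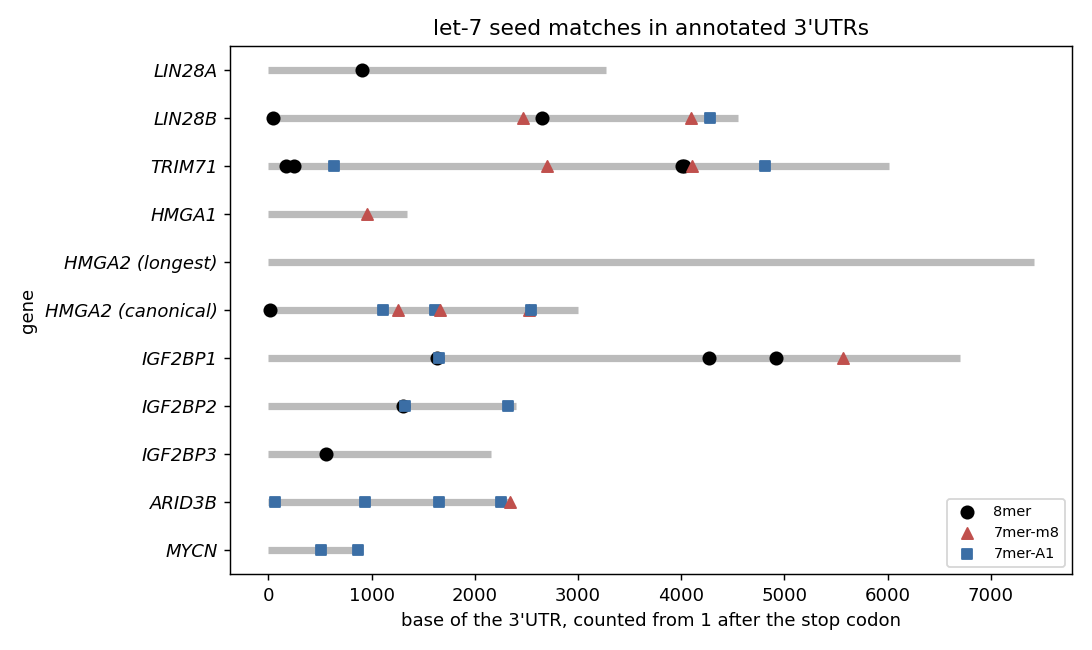
let-7 seed matches in the annotated 3′UTR of each member, with the position in bases counted from 1 after the stop codon on the x axis and 1 grey bar per 3′UTR; markers give 8mer, 7mer-m8 and 7mer-A1 sites. TRIM71 carries 8 sites, and HMGA2 is drawn both with its longest 3′UTR, which has 0, and with its canonical 3′UTR, which has 7.

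DAZL itself, measured as a check of the labels, stood at 102 and 101 TPM with oeDAZL and was listed at 0 and 0.0333 TPM in control libraries, as labelled. Genes of at least 1 TPM numbered 16342 to 17239 per library and mitochondrial transcripts took 12.6% to 14.1% of TPM. The cell type labels were set against fixed markers. For comparison, 20.2% of all tested genes had an unadjusted limma P of at most 0.05 in either direction. Of 10 primordial germ cell markers, 8 were tested, and PDPN was the only one past the unadjusted threshold of 0.05 in limma, with a log2 fold change of 0.44. PDPN held that threshold in 4 of 12 alternative processings and was at 0.15 without control replicate 1 and 0.73 without control replicate 2. The other 7 tested markers had a log2 fold change below 0, as did 65.3% of all tested genes. Over the 8 tested markers the median was -0.09, against -0.08 over all tested genes. Both oeDAZL libraries lay below both controls for 3 and above them for 1, against 38.4% and 16.0% of all tested genes. The summed level of the 10 markers was 148 and 166 TPM in control and 162 and 163 TPM in oeDAZL libraries. By gene, DDX4 was listed at 0 in all 4 libraries, NANOS3 was at 1.39 and 1.66 TPM in control and 1.07 and 0.732 TPM in oeDAZL libraries, SOX17 was at 2.52 to 3.35 TPM, KIT was at 6.23 to 7.70 TPM, ALPL was at 44.01 to 52.65 TPM, PDPN was at 32.9 to 58.5 TPM and TFAP2C was at 44.3 to 53.9 TPM. The core pluripotency factor NANOG was below 1 TPM in all libraries and POU5F1 was at 13.6 and 10.6 TPM in control and 22.4 and 20.4 TPM in oeDAZL libraries. The markers of amnion and trophoblast summed to 2416 and 2234 TPM in control and 2274 and 2317 TPM in oeDAZL libraries, led by GABRP at 1208 to 1408 TPM. HAND1, listed here as a mesoderm marker and outside that sum, reached 1250 TPM. In bulk RNA, fewer cells of a type and less RNA per cell cannot be told apart.

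All 10 members were well expressed. HMGA1, an architectural chromatin protein, and LIN28A stood at the top, with mean TPM above that of 99.1% and 98.3% of the tested genes, and LIN28B, at the bottom, was still above 70.8%. In the control libraries the order by TPM was HMGA1, LIN28A, HMGA2, IGF2BP1, IGF2BP2, ARID3B, IGF2BP3, TRIM71, MYCN and LIN28B, and among neighbours only the ranges of IGF2BP3 and TRIM71 overlapped. In the oeDAZL libraries HMGA2 moved from the third place to the fourth, with its range overlapping that of IGF2BP1, and TRIM71 and IGF2BP3 again overlapped. The summed level of the 10 members was 2220 and 2115 TPM in control and 2013 and 1966 TPM in oeDAZL libraries.

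**Figure D2:**
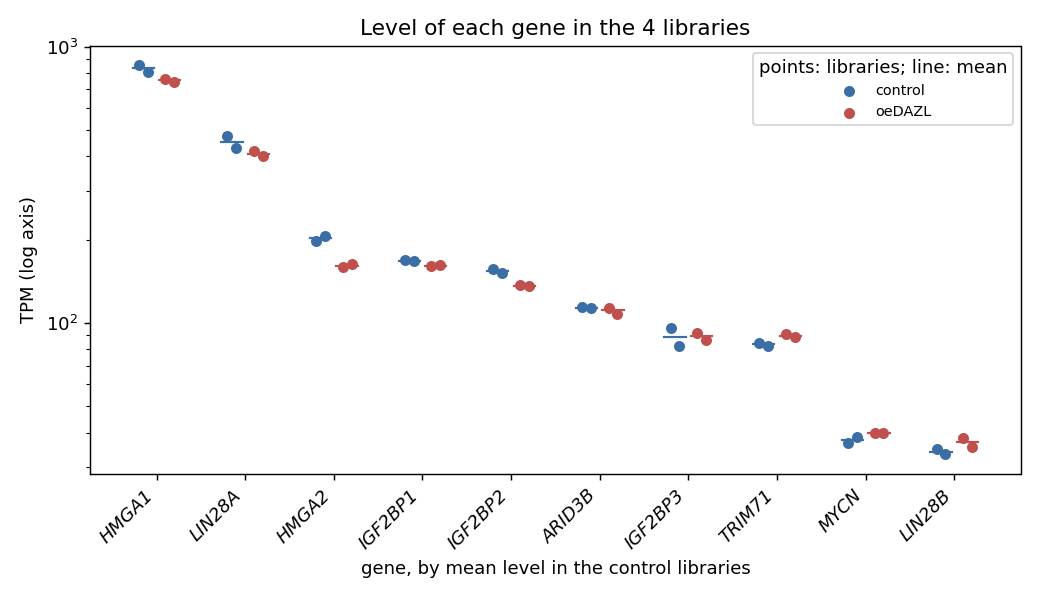
TPM of each member in each of the 4 libraries on a log axis, with 1 point per library and a line at the mean of each group. HMGA1 (746 to 855 TPM) and LIN28A (401 to 476 TPM) lie above all others, and the 2 groups of HMGA2 are separate (198 and 206 TPM in control, 159 and 163 TPM in oeDAZL libraries).

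The question of the comparison is how these transcripts differed when DAZL, which the study links to let-7 maturation, was overexpressed. With oeDAZL, HMGA2, IGF2BP2 and HMGA1 were lower at an unadjusted P of at most 0.05 in limma, and 0 members were higher. The share of all tested genes past this P was 15.2% for lower, 5.02% for higher and 20.2% in either direction. The remaining 7 members missed that threshold. Over all tested genes 838 were higher and 2530 lower, whereas median-of-ratios scaling, which sets the typical gene to no change, gave 1660 higher and 1528 lower. With that scaling HMGA2 was the single member lower (log2 fold change -0.25), and LIN28B and TRIM71 were higher. At a fold change of at least 2 with the same P, 0 members were called, where 0.126% of tested genes were called higher, 0.563% lower and 0.689% in either direction. After Benjamini-Hochberg adjustment in limma 0 members passed 0.05, where 0.0599% of tested genes (10 genes) did. Both oeDAZL libraries lay below both control libraries for 5 members and above them for 3, while 38.4% of tested genes were without overlap on the lower side, 16.0% on the higher side and 54.4% in all. The median log2 fold change was -0.05 over the members and -0.08 over all tested genes, of which 65.3% were below 0. With 2 libraries against 2, an exact permutation test of a single gene cannot go below P = 0.333 (two-sided).

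**Figure D3:**
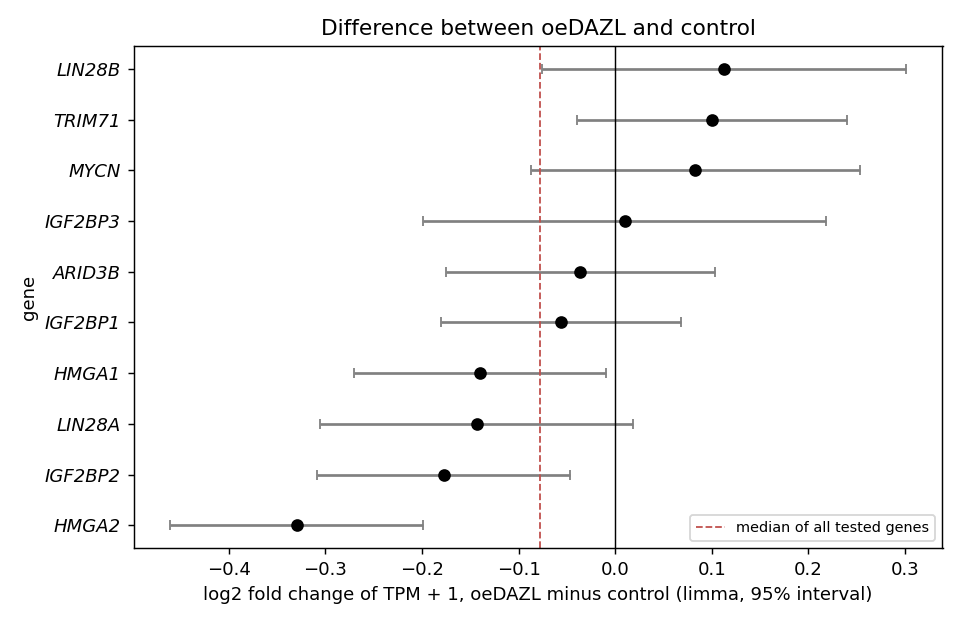
log2 fold change of TPM + 1 of each member, oeDAZL minus control, with 1 point per gene, the 95% confidence interval from limma as a bar and a dashed line at the median of all tested genes (-0.08). HMGA2 (-0.33) lies farthest from 0, and the intervals of 7 members include 0.

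LIN28A and LIN28B lay on opposite sides. LIN28A (ENSG00000131914.11, chr1:26410817-26429728, plus strand, 4 exons) encodes the cytoplasmic LIN28 protein that recruits the uridylating enzymes TUT4 and TUT7 to let-7 precursors. Its level was 476 and 428 TPM in control and 417 and 401 TPM in oeDAZL libraries, so that both oeDAZL libraries were below both controls by a narrow gap. The means were 452 ± 33.6 and 409 ± 11.7 TPM (SD, n = 2), and the log2 fold change of -0.14 (SE 0.07, 95% confidence interval -0.31 to 0.02) had an unadjusted P of 0.0737 and an adjusted p of 0.292 in limma. The value for LIN28A rested on the control libraries, at -0.07 without control replicate 1 (unadjusted limma P of 0.216) and -0.22 without control replicate 2 (unadjusted limma P of 0.00654), and median-of-ratios scaling gave -0.06 (unadjusted limma P of 0.364). LIN28B (ENSG00000187772.8, chr6:104936616-105083332, plus strand, 4 exons), the paralog that also occurs in the nucleus, was at 34.8 and 33.4 TPM in control and 38.3 and 35.6 TPM in oeDAZL libraries. Both oeDAZL libraries were above both controls, with a log2 fold change of 0.11 (SE 0.08, interval -0.08 to 0.30) and an adjusted p of 0.454 in limma.

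The ratio of LIN28A to LIN28B was 13.7 and 12.8 in control and 10.9 and 11.3 in oeDAZL libraries, so LIN28A was the main LIN28 transcript in all 4. LIN28B made up 6.82% and 7.23% of the summed LIN28 level in control and 8.42% and 8.16% in oeDAZL libraries, a shift without overlap of 7.02 ± 0.29 to 8.29 ± 0.185% (SD, n = 2) that was not tested beyond that spread. The coding sequences of the pair were identical at 72.3% of aligned bases. The sites differed in number, with 1 in the 3270 bases of the LIN28A 3′UTR and 5 in the 4549 bases of the LIN28B 3′UTR.

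TRIM71 (ENSG00000206557.6, chr3:32817997-32897824, plus strand, 4 exons), also known as LIN41, is an RNA-binding ubiquitin ligase that represses mRNAs and is the classical let-7 target. Its level was 84.6 and 82.7 TPM in control and 90.8 and 88.7 TPM in oeDAZL libraries. By longest annotated 3′UTR it carries more let-7 sites than any other gene searched. For TRIM71 both oeDAZL libraries were above both controls. The log2 fold change was 0.10 (SE 0.06, interval -0.04 to 0.24), with an unadjusted P of 0.130 and an adjusted p of 0.373 in limma. Median-of-ratios scaling gave 0.18 for TRIM71 with an unadjusted P of 0.0177 and 0.19 for LIN28B with an unadjusted P of 0.0419 in limma. The study itself reported TRIM71 mRNA (RT-qPCR) and protein (western blot) to be lower with oeDAZL in H9 PGCLCs. It also reported lower TRIM71 with oeDAZL in NT2 germ cell tumor cells, and a moderate increase of TRIM71 when DAZL was silenced. The direction in these libraries differs from that reported for oeDAZL in H9 PGCLCs, and the reason was not tested.

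The genes with the most similar levels over the 4 libraries, by Euclidean distance of log2(TPM + 1), were TRIM28 for LIN28A (distance 0.0890), PHLDA1 for LIN28B (0.0649) and PTP4A2 for TRIM71 (0.0150). This measure ranks by level as well as by pattern.

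HMGA2 and HMGA1, which bind AT-rich DNA through AT hooks, were both lower with oeDAZL at the unadjusted P. HMGA2 (ENSG00000149948.13, chr12:65824460-65966291, plus strand) was at 198 and 206 TPM in control and 159 and 163 TPM in oeDAZL libraries, the clearest separation among the members. The means were 202 ± 5.53 and 161 ± 2.79 TPM (SD, n = 2), a ratio of 0.796. The log2 fold change was -0.33 (SE 0.05, interval -0.46 to -0.20), with an unadjusted P of 0.000788 and an adjusted p of 0.0896 in limma. HMGA2 kept an unadjusted P of at most 0.05 in 12 of 12 alternative processings, with log2 fold changes of -0.36 to -0.25 and adjusted p of 0.0515 to 0.402 in limma.

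HMGA1 (ENSG00000137309.19, chr6:34236873-34246231, plus strand) was at 855 and 812 TPM in control and 766 and 746 TPM in oeDAZL libraries. Both oeDAZL libraries were below both controls, by less than for HMGA2. The means were 833 ± 30.4 and 756 ± 14.0 TPM (SD, n = 2) and the log2 fold change was -0.14 (SE 0.05, interval -0.27 to -0.01), with an unadjusted P of 0.0393 and an adjusted p of 0.225 in limma. The unadjusted P of HMGA1 stayed at or below 0.05 in 4 of 12 alternatives and was 0.0582 without control replicate 1, 0.165 without oeDAZL replicate 1 and 0.278 without oeDAZL replicate 2 in limma. HMGA1 exceeded HMGA2 4.31-fold and 3.94-fold in control and 4.83-fold and 4.59-fold in oeDAZL libraries. HMGA1 had a single 7mer-m8 site in its 1347-base 3′UTR and HMGA2 the sites of its canonical 3′UTR named above.

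The pseudogene and antisense entries of the members were low. Of 15 such entries, 6 were at 0 in all libraries and 4 were above 1 TPM in any library, namely HMGA1P2, HMGA1P3, HMGA1P8 and MYCNOS, none above 5.10 TPM. MYCNOS lies antisense to MYCN, and without a stated strand setting reads of such a pair cannot be told apart.

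The IGF2BP proteins bind mRNAs and protect them from decay, and of the 3 paralogs only IGF2BP2 passed the unadjusted P. IGF2BP2 (ENSG00000073792.15, chr3:185643130-185825042, minus strand) was at 157 and 152 TPM in control and 137 and 136 TPM in oeDAZL libraries. The groups were apart, at 154 ± 3.89 and 136 ± 0.428 TPM (SD, n = 2), and the log2 fold change was -0.18 (SE 0.05, interval -0.31 to -0.05), with an unadjusted P of 0.0158 and an adjusted p of 0.166 in limma. That P held in 8 of 12 alternatives and was 0.0985 without oeDAZL replicate 1 and 0.109 without oeDAZL replicate 2 in limma. IGF2BP1 (ENSG00000159217.10, chr17:48997385-49056145, plus strand) was at 168 and 167 TPM in control and 160.6 and 161.2 TPM in oeDAZL libraries. These groups did not overlap, but the log2 fold change of -0.06 (interval -0.18 to 0.07) was small against the error of the fit, and median-of-ratios scaling turned it to 0.03. IGF2BP3 (ENSG00000136231.14, chr7:23310209-23470491, minus strand) was at 95.7 and 82.3 TPM in control and 91.9 and 86.9 TPM in oeDAZL libraries. Its control libraries enclosed both oeDAZL libraries, and the log2 fold change of 0.01 (interval -0.20 to 0.22) turned to -0.10 without control replicate 2 and to -0.03 without oeDAZL replicate 1.

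Within the family, IGF2BP2 made up 37.3% and 37.8% of the summed TPM in control and 35.1% and 35.4% in oeDAZL libraries. The summed level was 421 and 401 TPM in control and 389 and 384 TPM in oeDAZL libraries. The coding sequences were identical at 70.7% of aligned bases for IGF2BP1 with IGF2BP2, 70.7% for IGF2BP1 with IGF2BP3 and 71.5% for IGF2BP2 with IGF2BP3. The number of let-7 sites in the longest annotated 3′UTR was 5, 3 and 1 for IGF2BP1, IGF2BP2 and IGF2BP3. Whether the 3 responses differ from each other was not tested.

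The transcription factors ARID3B and MYCN gave no difference past the threshold. ARID3B (ENSG00000179361.17, chr15:74541206-74598131, plus strand), a DNA-binding protein of the ARID family, was at 114 and 113 TPM in control and 113 and 108 TPM in oeDAZL libraries, with overlapping groups. Its log2 fold change was -0.04 (interval -0.18 to 0.10, adjusted p of 0.758 in limma), and median-of-ratios scaling turned it to 0.05. MYCN (ENSG00000134323.12, chr2:15940550-15947007, plus strand), a MYC-family factor of embryonic growth, was at 36.8 and 38.6 TPM in control and 39.93 and 40.02 TPM in oeDAZL libraries. Both oeDAZL libraries were higher, and the log2 fold change of 0.08 (interval -0.09 to 0.25) had an adjusted p of 0.539 in limma.

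**Figure D4:**
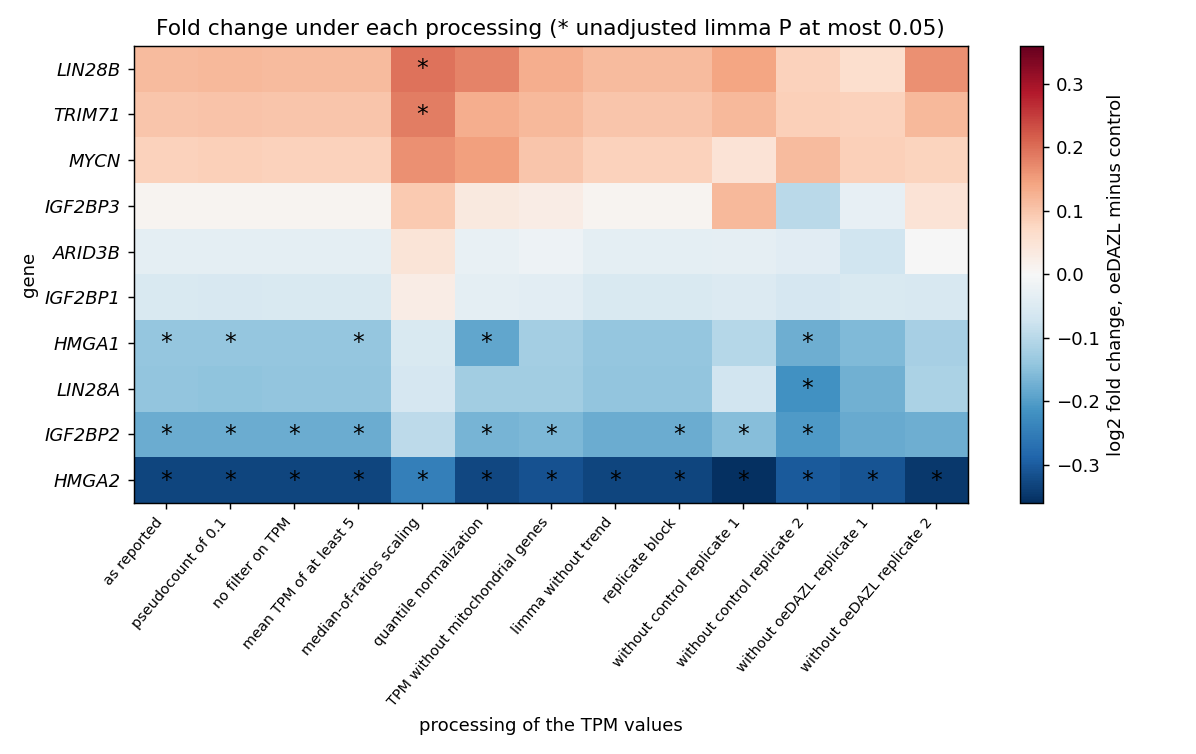
log2 fold change of each member (rows) under the reported processing and each alternative (columns), with blue for lower and red for higher in oeDAZL and an asterisk where the unadjusted limma P is at most 0.05. HMGA2 is blue with an asterisk in every column, whereas LIN28B and TRIM71 have an asterisk only under median-of-ratios scaling.

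The other genes of a fixed list of 40 let-7 targets moved in both directions. Of 38 tested, 4 were higher and 8 lower at the unadjusted P, 26 missed it, and 0 were called at a fold change of 2 or passed adjustment in limma. Over all tested genes the shares past that P were 5.02% higher, 15.2% lower and 20.2% in either direction. The median was -0.08, as over all tested genes. Median-of-ratios scaling gave 6 higher and 3 lower, where 9.95% of all tested genes were higher and 9.16% lower. The counts of these targets changed with the library left out, and so did the shares of all tested genes.

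NRAS, a RAS GTPase, was at 95.7 and 104 TPM in control and 123 and 126 TPM in oeDAZL libraries (log2 fold change 0.32, adjusted p of 0.0984 in limma). NRAS was thus higher in both oeDAZL libraries, as MYC also was. On the lower side, INSR, the insulin receptor, was at 9.18 and 7.24 TPM in control and 6.04 and 5.95 TPM in oeDAZL libraries (log2 fold change -0.39). IGDCC3, an immunoglobulin superfamily receptor, was at 358 and 291 TPM in control and 236 and 262 TPM in oeDAZL libraries (log2 fold change -0.38). TGFBR1, the type I receptor of TGF-β, and CDK6, a G1 kinase, each had a log2 fold change of -0.27. The unadjusted P of NRAS and TGFBR1 held in 12 of 12 alternatives, that of INSR in 5. Without control replicate 1 INSR was at -0.24, IGDCC3 at -0.23 and MYC at 0.14.

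**Figure D5:**
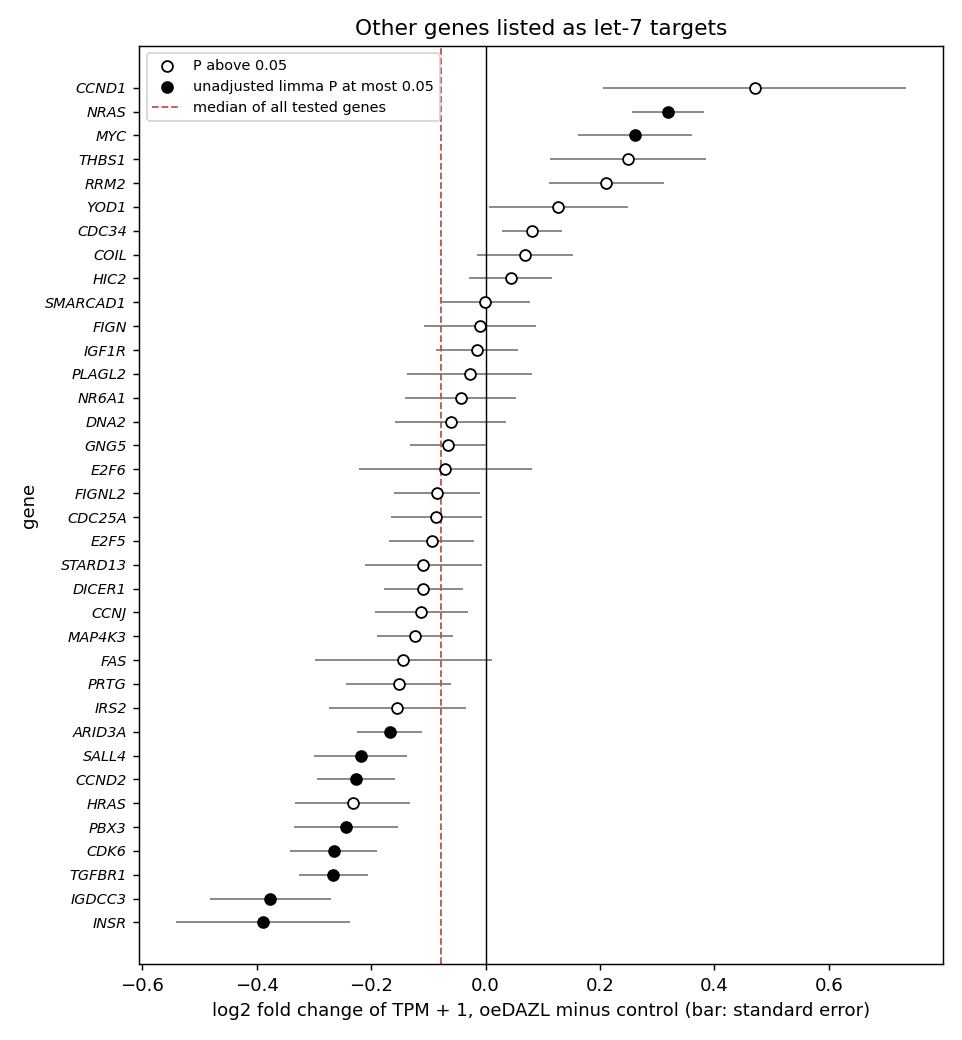
log2 fold change of TPM + 1 for 36 of the 38 tested genes of the list of other let-7 targets, oeDAZL minus control, with the standard error as a bar and filled points for unadjusted limma P of at most 0.05. The values run from -0.39 for INSR to 0.47 for CCND1, whose groups overlapped, around the median of all tested genes of -0.08 (dashed).

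The number of sites was set beside the fold changes of all other tested genes with an annotated 3′UTR. The median log2 fold change was -0.07 for 10531 genes with 0 sites, -0.07 for 2002 genes with 1 site, -0.06 for 387 genes with 2 sites and -0.11 for 106 genes with 3 or more. Of these 106, 16 (15.1%) were lower and 9 (8.49%) higher at the unadjusted P, against 15.9% and 5.70% of the genes without a site. No test was made of these medians and shares, since genes share libraries and are not replicates.

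Genes known to act on let-7 maturation were measured in the same libraries. Among all tested genes, 5.02% were higher and 15.2% lower at the unadjusted limma P, with a median log2 fold change of -0.08. Of the 10 maturation genes, 0 were higher and 3 were lower, with a median of -0.14. Among them were MSI1, a neural RNA-binding protein (-0.28), and HNRNPA1, an hnRNP known to bind pri-let-7a (-0.23). The unadjusted P of MSI1 held in 7 and that of HNRNPA1 in 9 of 12 alternatives, and neither held with median-of-ratios scaling or without oeDAZL replicate 1 or oeDAZL replicate 2. TUT4, the partner of LIN28A, was at 46.8 and 46.6 TPM in control and 41.1 and 42.8 TPM in oeDAZL libraries (log2 fold change -0.15, unadjusted P of 0.0638 in limma). Of 6 host transcripts of let-7 genes, 5 were in the table and 2 were tested, of which HUWE1, the host of MIR98 and a let-7f gene, was lower (-0.21, unadjusted P of 0.0471 in limma) and MIR100HG was at -0.33 with an unadjusted P of 0.346 in limma. HUWE1 held that P in 4 of 12 alternatives and was at -0.10 without control replicate 1, -0.33 without control replicate 2 and -0.13 with median-of-ratios scaling.

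Downstream of TRIM71, 7 mRNAs known to be repressed by it were listed. Of these, 2 were higher and 1 lower at the unadjusted P, against 5.02% and 15.2% of all tested genes. EGR1, an immediate early factor, was at 19.1 and 21.2 TPM in control and 26.4 and 24.9 TPM in oeDAZL libraries (log2 fold change 0.34), and RBL2, a pocket protein, was lower (-0.25). The unadjusted P of EGR1 held in 11 and that of RBL2 in 6 of 12 alternatives. The other 4, among them the cell cycle inhibitor CDKN1A (0.25, unadjusted P of 0.163 in limma, groups overlapping), missed it.

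Downstream of the IGF2BP proteins, 8 client transcripts were listed. For comparison, 5.02% of all tested genes were higher and 15.2% lower at the unadjusted limma P. IGF2, the fetal growth factor whose mRNA gave the family its name, was at 118 and 110 TPM in control and 67.0 and 65.1 TPM in oeDAZL libraries. The groups were far apart and the log2 fold change was -0.78 (SE 0.06, interval -0.94 to -0.62), with an adjusted p of 0.0390 in limma, 1 of the 10 genes that passed adjustment. Its unadjusted P held in 12 of 12 alternatives, and the adjusted p ranged from 0.0346 to 0.322 in limma. LAMB2, a laminin chain, was lower (-0.28) and MYC higher (0.26) at the unadjusted P, which held in 12 and 7 of 12 alternatives. The other 5 missed it, including H19, the noncoding neighbour of IGF2 (-0.15, unadjusted P of 0.0535 in limma).

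Markers of other cell types differed between the same libraries, and their part in the differences of the members was not tested. The shares of all tested genes past the unadjusted limma P were 5.02% higher, 15.2% lower and 20.2% in either direction. Of the neural markers, PAX6 (-1.30), ZIC1 (-0.93) and OTX2 (-0.87) were lower and NES (0.52) was higher at the unadjusted P. The summed neural levels were 269 and 356 TPM in control and 445 and 413 TPM in oeDAZL libraries. Most of that sum was NES, at 253 and 347 TPM in control and 440 and 409 TPM in oeDAZL libraries. PAX6 was at 3.83 and 1.14 TPM in control and 0.0967 and 0.558 TPM in oeDAZL libraries, and SOX1 was below 1 TPM in all. Of 5 tested mesoderm markers, HAND1 was higher (0.32) and TBXT lower (-0.97) at that P, and 4 had a log2 fold change below 0. The summed mesoderm levels were 982 and 1060 TPM in control and 1265 and 1264 TPM in oeDAZL libraries. Most of that sum was HAND1, at 958 and 1042 TPM in control and 1250 and 1247 TPM in oeDAZL libraries. Of 8 amnion and trophoblast markers, GATA2 (0.27) was higher and CGA (-1.18), CDX2 (-0.69) and ISL1 (-0.49) were lower. Of 5 endoderm markers, AFP (-1.04) was lower, and the sum was 264 and 159 TPM in control and 162 and 203 TPM in oeDAZL libraries. Of 5 tested pluripotency markers, POU5F1 (0.79) and TDGF1 (0.82) were higher and SALL4 (-0.22) was lower at that P. By direction alone, 2 of the 5 were above 0 and 3 below 0, all without overlap between the groups. Among all tested genes 65.3% were below 0 and 54.4% were without overlap. The summed pluripotency levels were 135 and 124 TPM in control and 132 and 129 TPM in oeDAZL libraries. Several of these values rested on control replicate 1. Without it PAX6 was at -0.71, OTX2 at -0.50, NES at 0.29, TBXT at -0.66, GATA2 at 0.15, ISL1 at -0.23, AFP at -0.34, TDGF1 at 0.52 and SALL4 at -0.13, whereas without control replicate 2 AFP was at -1.74. The unadjusted P held in 12 of 12 alternatives for NES, HAND1, CGA, CDX2 and POU5F1, and in 4 for AFP and SALL4.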

How the data were processed

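RNA was sequenced from 2 control and 2 oeDAZL samples. The authors trimmed the reads with Trim Galore, mapped them to hg38 with HISAT2 (2.1.0), kept uniquely mapped reads and quantified genes with StringTie (2.1.4), and deposited TPM per gene; the annotation release is not given in the sources used here. Of the members, 5 have another identifier version in GENCODE 44, from which coordinates and 3′UTRs were taken. TPM keeps no read depth, so depth is unknown and precision rests on the spread between libraries. Of 65003 entries, 45 chromosome Y copies and 18 repeats were left out. Genes averaging 1 TPM or more (16687) were fitted as log2(TPM + 1) with limma 3.58.1 in R 4.3.3 (trend, no covariates), with Benjamini-Hochberg adjustment over all of them. The script was tested on simulated data. All members were named, and from each other list the genes of unadjusted P of at most 0.05, at most the 6 with the largest change. TUT4, CDKN1A, H19, CCND1 and single markers were named after their values were seen. Members and lists were chosen with earlier results of these data known. Alternatives were pseudocount, filter, scaling, mitochondrial genes, trend, replicate block and each library left out. Protein comparisons and MIRLET7IHG were not analysed here, and some listed genes are not reported here.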

Additional observations from a re-analysis of the deposited data

How the results depend on the processing

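The counts of members called at a fold change of 2 (0) and the count past adjustment (0) were the same in all 12 alternatives. Median-of-ratios scaling moved the median of all tested genes from -0.08 to -0.0026 (quantile normalization to 0.0061), and gave 2 members higher and 1 lower at the unadjusted P, a member median of 0.037 and 3 other let-7 targets lower, with IGF2BP1 at 0.027 and ARID3B at 0.047 instead of below 0. The share of all tested genes below 0 was 65.3% as deposited, 50.5% with median-of-ratios scaling and 48.7% with quantile normalization, and the split of higher against lower genes at the unadjusted P was 838 to 2530, 1660 to 1528 and 1402 to 1514. Quantile normalization left 5 other targets lower, and limma without trend left 1 member lower, 2 other targets higher and 5 lower. Without trend, 3.39% of all tested genes were higher and 13.9% lower. Leaving out 1 library gave 1 to 4 members lower, a member median of -0.080 to -0.030, 1 to 7 other targets higher and 2 to 8 lower, and a log2 fold change of IGF2BP3 of -0.097 if control replicate 2 was dropped, 0.117 if control replicate 1 was dropped and -0.030 if oeDAZL replicate 1 was dropped. In these fits the lone library of a group is assumed to vary like the other group. Apart from scaling and the libraries left out, the cause was not tested.

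The deviations of same-numbered libraries from their group means had a correlation of -0.104 over 16687 genes. With 2 libraries per group this is a single contrast, so it cannot show whether the replicate numbers pair the libraries. With the replicate block, 2 members and 4 other targets were lower, and genes past the unadjusted P fell in number from 3368 to 2772 and past adjustment from 10 to 4. With crossed numbers, chosen after seeing the data, 4017 genes passed the unadjusted P and 1089 adjustment, among them 1 member, and 7 other targets were higher. TPM keeps no depth, and no detection limit was computed.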

Other observations

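The table also lists 12 let-7 family genes. MIRLET7I was at 1.49 and 3.91 TPM in control and 2.25 and 2.11 TPM in oeDAZL libraries, and MIRLET7G was at 0.275 and 1.19 TPM in control and was listed at 0 in both oeDAZL libraries. MIR98, MIRLET7D and MIRLET7F1 stayed below 1 TPM and the other 7 were listed at 0 in all 4 libraries. These entries are short genes in an RNA library that does not select mature miRNAs, so they are no measure of mature let-7.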
